A study of Mus musculus with 7 samples.

Results

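Splenic plasmablasts taken from mice at day 3 after lipopolysaccharide (LPS) were compared with naive splenic B cells, gene by gene, on Illumina MouseRef-8 bead arrays, which read RNA by its binding to short fixed DNA features. The 3 plasmablast arrays and the 2 naive B cell arrays made up 5 of the 7 arrays of the series. The plasmablasts were sorted as B220mid CD138+ from C57Bl/6J mice given LPS, and the naive B cells as B220+ CD43- from C57Bl/6J mice with the agent given as control. All 5 samples were labelled female, 10 weeks old and from spleen. Replicates are numbered in the labels, with nothing on whether they are different mice, so every p-value reflects the scatter of these samples alone, which may be technical. A feature entered the comparison if it was above background (detection p under 0.01) on at least 2 of the 5 arrays, which left 10002 of 25697 features and 6955 of 16593 genes.

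LPS is a bacterial cell wall component that B cells sense through Toll-like receptor 4. Naive B cells that respond to it divide and turn into plasmablasts, the dividing forms on the way to plasma cells. Naive B cells are small resting cells that circulate, crawl through lymphoid tissue and present antigen, and plasmablasts give over much of the cell to making antibody. The genes described here are mostly outside the plasma cell, cell cycle and endoplasmic reticulum (ER) programs.

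The arrays carried the 4 identity markers as labelled. Sdc1, which encodes the CD138 used in the sort, had normalized log2 signals of 9.58, 9.37 and 9.67 on the plasmablast arrays, against 5.69 and 5.81 on the naive B cell arrays, where it was below background. It was at least 8.71-fold higher. Xbp1, the transcription factor of secretory cells, was 10.3-fold higher, and Bhlha15, which encodes the secretory cell factor Mist1, was at least 76.8-fold higher. Fcer2a, which encodes the B cell marker CD23, was 24.3-fold lower. Here and below, "at least" marks a fold measured only up to the background limit, because every array of the lower group was below background, and its size depends on that limit. Where only some arrays of the lower group were above background, the fold is the fitted one and rests partly on signals below background. Among genes named here this holds for Cd86, Clec4n, Ell3, Fcgrt, Fosb, P2ry10, Prmt2 and Slc40a1, above background on 2 of 3 plasmablast arrays, for Axl and Lgals4, on 1 of 3, and for Ada, Cacna1h, Cd27, Kif18b, Nfil3, S100a8, Selenom and Stmn1, on 1 of 2 naive B cell arrays.

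The label of sex and the arrays were at odds. Xist, the RNA that coats the inactive X chromosome of female cells, had log2 signals of 10.26, 10.21 and 10.18 on the plasmablast arrays and was below background on both naive B cell arrays, at 5.28 and 5.6 (at least 14-fold higher). Eif2s3y, a Y-linked translation factor gene, was below background on the 3 plasmablast arrays and stood at 11.39 and 11.10 on the naive B cell arrays (at least 25.9-fold lower). Kdm5d, a Y-linked demethylase gene, was detected in naive B cells alone (at least 3.46-fold lower). The third Y-linked gene tested, Uty, differed by -0.39 log2 units (limma adjusted p = 0.0674), and no other Y-linked gene on the array was above background on any of the 5 arrays. Both naive B cell libraries carried this conflict, so no comparison could be made without them, and for any gene below, a difference of sex and a difference of cell state cannot be told apart. Of 215 X-linked genes tested, 87 were higher (40.5%) and 69 lower (32.1%), against 36.6% and 39.1% of 6734 autosomal genes. Among X-linked genes known to escape inactivation in mice, chosen after their values were seen, Kdm6a was 2.63-fold higher, Eif2s3x 1.87-fold higher and Ddx3x 1.47-fold higher.

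Marker genes of other spleen cells also differed between the groups, and which cells their RNA came from was not tested. Over all genes 36.7% were higher and 38.8% lower. Of 17 macrophage and monocyte markers tested (22 on the array), 16 were lower in plasmablasts and 0 higher. Their summed signal ran from 10.71 to 11.46 (log2) on the plasmablast arrays and from 15.58 to 15.85 on the naive B cell arrays. Fcna, a ficolin gene of splenic macrophages, had 5.07, 4.84 and 4.95 on plasmablast arrays, all below background, and 12.75 and 12.57 on naive B cell arrays. Of 10 red cell and platelet markers tested, 9 were lower and 0 higher, with summed signals of 10.36 to 10.55 in plasmablasts and 14.59 to 15.06 in naive B cells; the globin gene Hba-a1 was at least 261.2-fold lower. Endothelial and stromal markers reached the test for only 2 of 15 genes on the array, Stab2 and Pecam1, both lower. Of 9 T and NK cell markers tested, 5 were higher and 2 lower, with summed signals of 11.60 to 11.91 in plasmablasts and 12.37 to 12.50 in naive B cells, and the defining genes Cd3e, Cd4 and Cd8a did not pass the detection filter. Of 11 dendritic cell markers on the array 2 were tested, Bst2 (higher) and Batf3 (lower). Of 15 neutrophil markers only S100a8 and S100a9 passed the filter. Genes that rise when cells are handled, such as Fos and Jun, were lower in plasmablasts for 17 of 18 tested, with summed signals of 14.38 to 14.88 in plasmablasts and 16.91 to 16.99 in naive B cells. Without naive B cell replicate 1 or 2 the filter keeps few of the macrophage and red cell markers, and 6 macrophage and 0 red cell and platelet markers were called lower; with the features kept, 16 and 9 were lower without either array. The part of these other cells and of handling in the differences below was not tested.

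**Figure D1:**
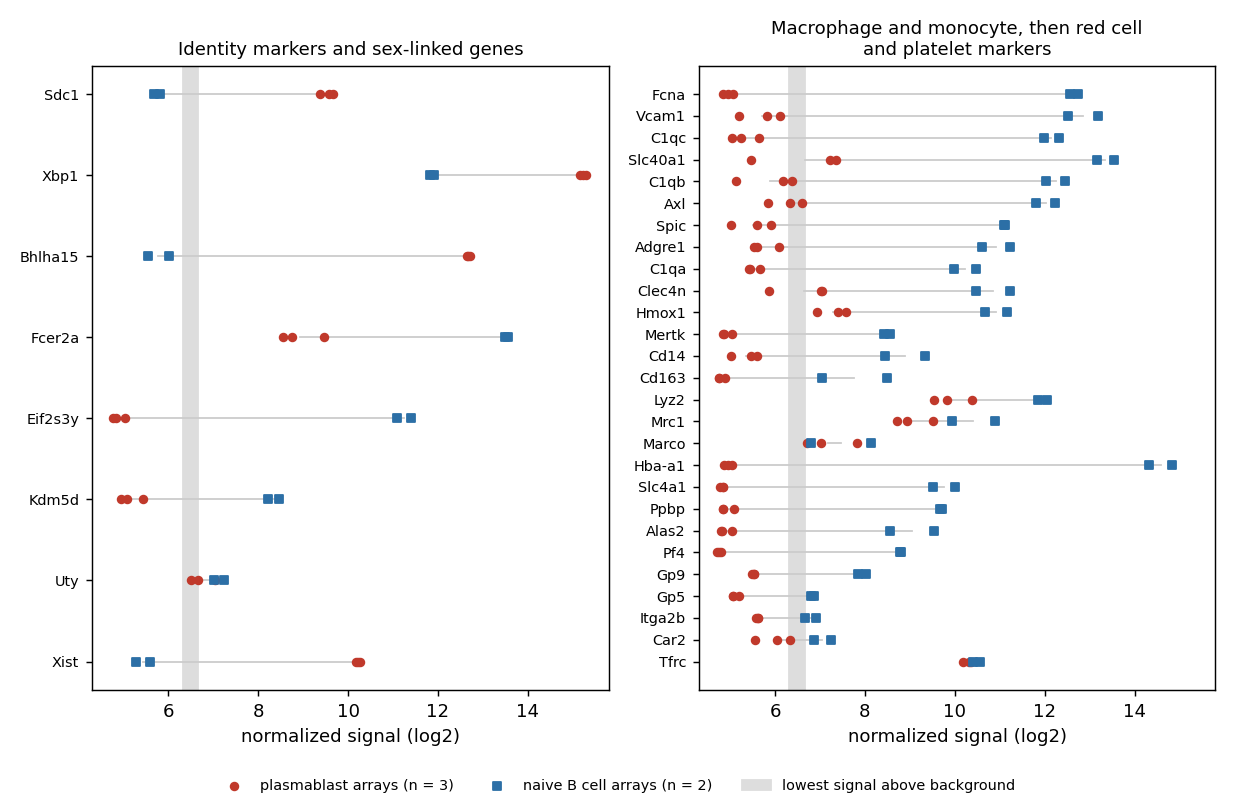
Normalized log2 signal of each array for the identity and sex-linked genes (left) and for markers of macrophages, red cells and platelets (right). Red points are plasmablast arrays, blue squares naive B cell arrays, grey lines join the group means, and the grey band spans the lowest signal above background on the 5 arrays (6.32 to 6.67); Xist is high only on the plasmablast arrays, Eif2s3y and Kdm5d only on the naive B cell arrays.

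Plasmablasts and naive B cells differed at most genes. limma called 7507 of the 10002 features (75.1%) at a Benjamini-Hochberg adjusted p under 0.05, 3726 higher (37.3%) and 3781 lower (37.8%). Of these, 1658 were higher (16.6%) and 1779 lower (17.8%) by 2-fold or more. By gene, taking the brightest kept feature, 5256 of 6955 (75.6%) were called, 2554 higher (36.7%) and 2702 lower (38.8%), with a median log2 difference of -0.01 over all genes. The median residual SD, after limma draws it toward a common value, was 0.113 log2 units. A count of called members is therefore read against these shares. With "at least" folds at their limit, 129 genes were 8-fold or more higher and 105 were 8-fold or more lower. Arrays of the same group correlated at 0.994 to 0.995 over features and arrays of different groups at 0.782 to 0.799. Between 8817 and 9194 features were above background on a plasmablast array, and 9135 and 9559 on the naive B cell arrays.

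Genes of the actin skeleton were mostly lower in plasmablasts. Actin filaments carry lymphocyte crawling, shape and the immune synapse; the Arp2/3 complex branches them, and WASP family proteins switch the complex on. Of 72 genes listed for the actin cytoskeleton, 63 were on the array and 56 were tested; 46 of these 56 were lower in plasmablasts (82.1%, against 38.8% of all genes), 4 were higher and 6 were not called. The median log2 difference was -1.05, and 29 fell by 2-fold or more.

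**Figure D2:**
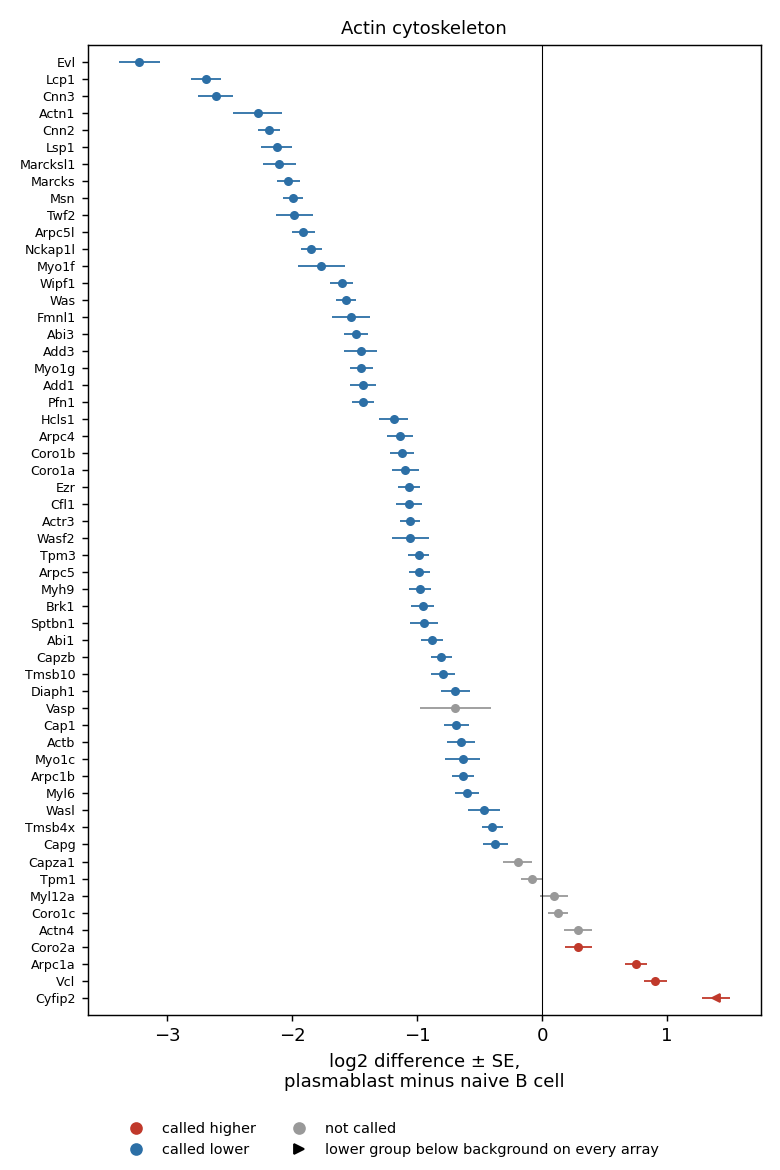
Log2 difference, plasmablast minus naive B cell, for every tested member of the actin list, with bars of 1 standard error from the limma fit (3 plasmablast and 2 naive B cell arrays). Blue is called lower, red called higher, grey not called, and triangles mark genes whose lower group was below background; most points lie left of 0, from Evl at -3.22 to Cyfip2 at 1.39.

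The largest fall in the actin list was Evl, an Ena/VASP protein that lengthens filaments. It had log2 signals of 8.05, 8.62 and 8.22 on the plasmablast arrays and of 11.52 on both naive B cell arrays, 9.33-fold lower (log2 difference -3.22, SE 0.16, adjusted p = 3.3e-06). Lcp1, the leukocyte filament bundler L-plastin, had 9.20, 9.55 and 9.48 in plasmablasts and 12.12 and 12.08 in naive B cells, 6.45-fold lower (SE 0.12 log2 units). In both genes every plasmablast array was below every naive B cell array.

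Members named beyond the largest changes of each list, here and below, were chosen after their values were seen. In the Arp2/3 complex, Actr3 was 2.08-fold lower, Arpc1b 1.55-fold lower, Arpc4 2.20-fold lower, Arpc5 1.98-fold lower and Arpc5l 3.75-fold lower. The exception in the complex was Arpc1a, 1.68-fold higher by its brightest feature, with 1 of its 3 features called the other way. Upstream of the complex, Was, which encodes the blood cell WASP, was 2.96-fold lower, its partner gene Wipf1 3.04-fold lower, and Nckap1l, the blood cell subunit of the WAVE complex, 3.59-fold lower. Cyfip2, another WAVE complex gene, was higher and below background in naive B cells. Of the proteins that tie filaments to the membrane, Msn (moesin) was 3.97-fold lower and Ezr (ezrin) 2.09-fold lower. Pfn1, which encodes the monomer-binding protein profilin, was 2.69-fold lower, and Cfl1, which encodes the severing protein cofilin, 2.09-fold lower. Vcl, which encodes vinculin of cell adhesions, had 9.91, 9.87 and 10.04 in plasmablasts and 9.09 and 8.98 in naive B cells, 1.87-fold higher. The fourth rise was Coro2a, a coronin gene, 1.22-fold higher. Without plasmablast replicate 1 or 3, only 2 actin genes were called higher.

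Actb, the beta-actin gene, gave different answers by feature. Its brightest feature was 1.57-fold lower in plasmablasts and the second 1.90-fold lower, but the third had 12.97, 13.44 and 13.36 in plasmablasts against 11.36 and 10.88 in naive B cells, 4.40-fold higher. No single direction can be given for Actb. Over the actin list, 19 genes had more than 1 kept feature: in 13 all features were called lower, in 0 all were called higher, and in 3 (Actb, Arpc1a and Tmsb10) features were called in opposite directions.

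The count of falls changed little when either naive B cell array was left out with the same features kept: 45 actin genes were lower without either array. Scaling to the 75th percentile in place of quantile normalization gave an actin median of -0.78. Macrophages and platelets, whose markers were lower in plasmablasts, also express actin genes, and that part was not tested.

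Promoters are shown for members of the actin list that hold a motif searched for, because most of its members moved the same way; the motifs were chosen after the values and other motifs had been seen. Each window is the RefSeq sequence (GRCm38.p6) from before to just after a gene's start. The CArG box, bound by serum response factor at actin genes, was searched on both strands and lay in the window of 4 of the 47 actin genes with a promoter in the table (8.51%), against 1.62% of 5740 tested genes and 1.81% of 27025 genes. The 4 were Arpc4, Cnn2, Myl6 and Vcl, of which Vcl rose. A pair of the windows is given with the motif in capitals:
Cnn2, chr10:79988350-79988649, plus strand: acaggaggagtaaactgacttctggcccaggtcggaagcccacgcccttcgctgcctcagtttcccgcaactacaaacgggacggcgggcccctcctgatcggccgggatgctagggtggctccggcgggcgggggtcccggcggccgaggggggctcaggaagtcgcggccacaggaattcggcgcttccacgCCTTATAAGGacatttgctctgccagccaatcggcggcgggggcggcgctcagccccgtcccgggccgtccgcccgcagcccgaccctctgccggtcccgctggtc
Arpc4, chr6:113377863-113378162, plus strand: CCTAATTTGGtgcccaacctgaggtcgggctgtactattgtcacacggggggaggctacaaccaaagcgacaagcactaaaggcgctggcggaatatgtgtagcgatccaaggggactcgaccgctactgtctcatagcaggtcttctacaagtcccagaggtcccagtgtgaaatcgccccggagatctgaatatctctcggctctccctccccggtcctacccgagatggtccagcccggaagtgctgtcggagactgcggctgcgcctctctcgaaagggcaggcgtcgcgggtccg
A match is a string of letters and not a measured binding site.

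Microtubule genes did not follow actin genes. Of 35 tested genes for tubulins, dynein and dynactin, 17 were higher (48.6%, against 36.7% of all genes), 8 lower and 10 not called, with a median log2 difference of 0.18. Tubb6, a beta-tubulin gene, had 10.78, 10.48 and 10.37 in plasmablasts and 7.55 on both naive B cell arrays, 7.98-fold higher. Stmn1, which encodes the microtubule-destabilizing protein stathmin, was 4.71-fold higher. Tubg2, a gamma-tubulin gene, was 2.77-fold lower.

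**Figure D3:**
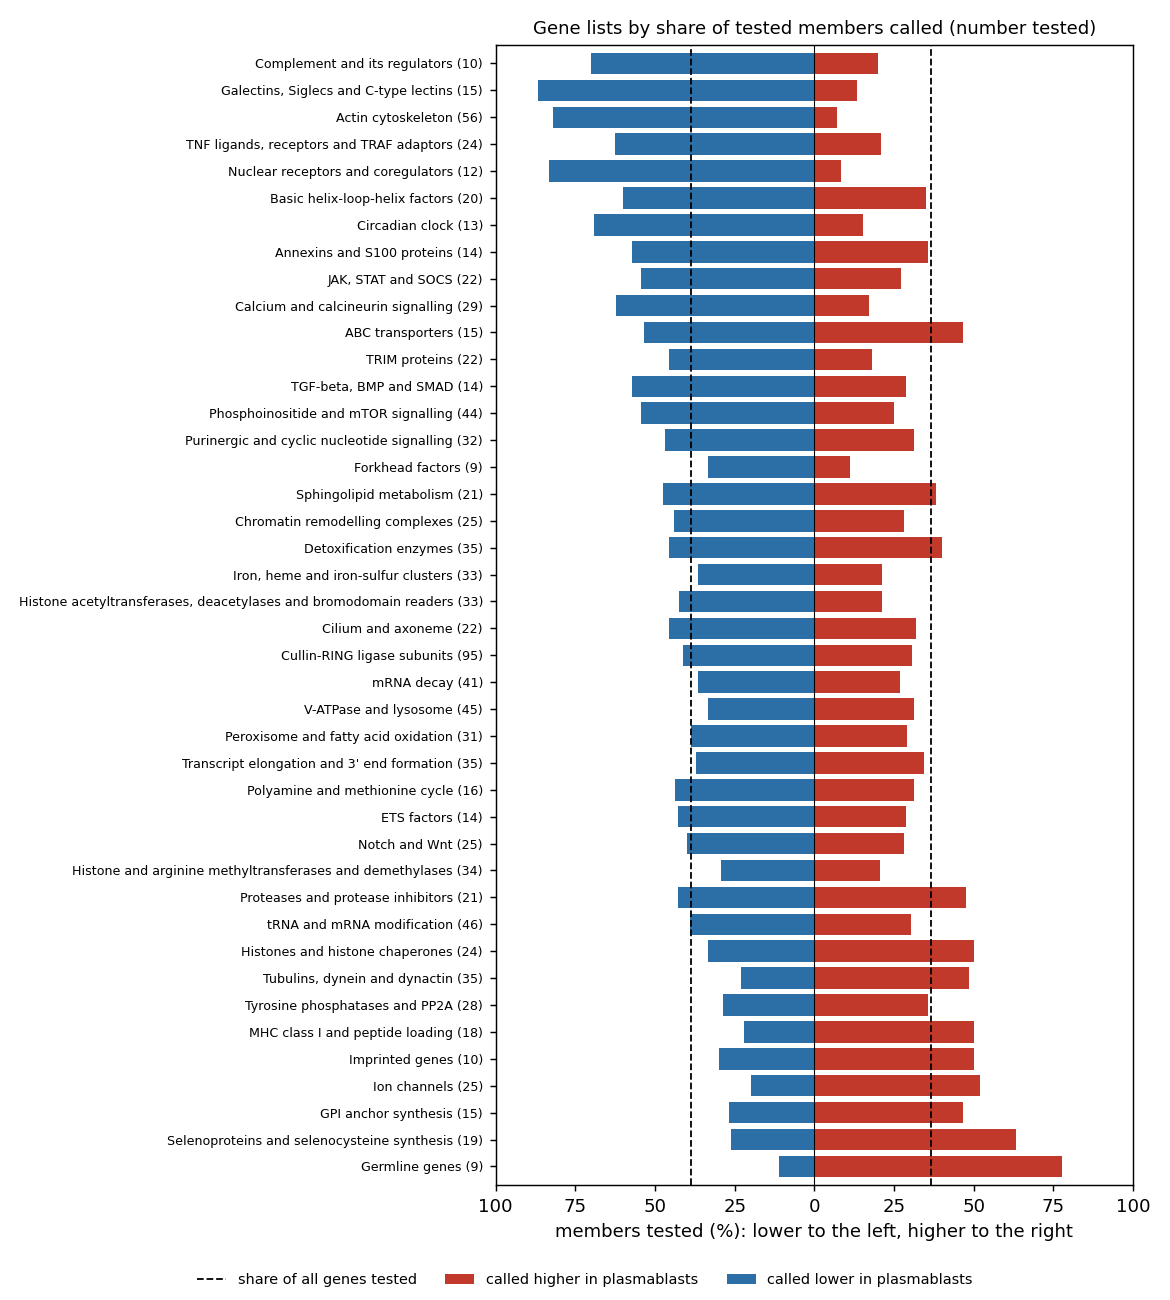
Share of tested members called lower (blue, to the left) and higher (red, to the right) in plasmablasts for 42 gene lists, with the number of members tested in brackets and lists ordered by median log2 difference. Dashed lines give the same shares over all 6955 genes (38.8% lower, 36.7% higher); the galectin, actin and nuclear receptor lists reach furthest to the left.

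Lymphotoxin and the TNF receptor pathway were mostly lower. Lymphotoxins, made by B cells, shape the spleen's follicles, and TRAF adaptors carry signals from their receptors. Of 40 genes on the array 24 were tested, and 15 of these were lower (62.5%, against 38.8% of all genes). Another 5 were higher and 4 not called, and the median was -0.92. Ltb, the membrane lymphotoxin chain, had 9.02, 9.84 and 9.21 in plasmablasts and 13.45 and 13.59 in naive B cells, 17.9-fold lower (SE 0.23 log2 units). The groups lay far apart. Lta, its secreted partner, was below background on the 3 plasmablast arrays and at 10.17 and 10.18 on the naive B cell arrays, at least 12.3-fold lower. The adaptor gene Traf5 was at least 4.37-fold lower and the death receptor gene Tnfrsf21 at least 4.08-fold lower. Cd27, a gene of the TNF receptor family, had 7.40, 7.80 and 7.47 in plasmablasts and 6.11 and 6.69 in naive B cells, 2.22-fold higher. The other rises were Traf7, Birc2, Relt and Traf6, between 1.25-fold and 1.83-fold. Without naive B cell replicate 1 or 2, 8 genes of this list were lower because the filter then drops genes seen in naive B cells alone; with the features kept, 14 were lower. Relt and Traf6 each had another feature called lower.

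Genes of sugar-binding proteins were mostly lower, around a strong rise of galectin 1. Of 31 galectin, Siglec and C-type lectin genes on the array 15 were tested. Of these, 13 were lower (86.7%, against 38.8% of all genes) and 2 higher, Lgals1 and Clec4e. Lgals1, galectin 1, had 12.40, 12.19 and 12.23 in plasmablasts and 9.89 and 9.91 in naive B cells, 5.17-fold higher. Lgals3, galectin 3, was 10.1-fold lower, at 8.53, 8.53 and 8.39 in plasmablasts and 11.77 and 11.88 in naive B cells. Lgals8, Lgals9 and Lgals4 were 2.06-fold, 1.97-fold and 2.60-fold lower. Several of the lectin genes are macrophage genes: Clec4n, 18.5-fold lower, and Mrc1 are also in the macrophage marker list that fell. When either naive B cell array was left out with the same features kept, 11 or 12 lectin genes were lower and 1 higher. Only 1 was higher without plasmablast replicate 1 or 3 as well.

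Clock and nuclear receptor genes were mostly lower. In the circadian list the core pair Arntl and Clock switches on its own repressors of the Per and Cry families. Of 13 tested genes 9 were lower (69.2%, against 38.8% of all genes), 2 higher and 2 not called. By 2-fold or more 4 of the 13 were lower. Bhlhe40, a repressor of clock genes, had 7.71, 7.65 and 7.81 in plasmablasts and 10.79 and 10.45 in naive B cells, 7.46-fold lower. Dbp, an output gene of the clock, had 8.0, 8.53 and 8.17 in plasmablasts and 10.27 and 10.42 in naive B cells, 4.31-fold lower. Arntl was 1.53-fold lower, Per1 1.29-fold and Per2 1.68-fold lower, and Clock 1.31-fold higher. Nfil3, the repressor that competes with Dbp for the same sites, ran the other way, with 9.36, 9.21 and 9.49 in plasmablasts and 6.32 and 6.62 in naive B cells, 7.38-fold higher. The hour of sampling is not in the labels. Only 12 of 36 nuclear receptor and coregulator genes on the array were tested, with 10 lower (83.3%) and 1 higher, Ncoa3, and 4 of the 12 lower by 2-fold or more; 2 were higher without plasmablast replicate 3. Esrra, which drives mitochondrial genes, was 3.15-fold lower, and Nr1h3, the oxysterol receptor LXR alpha of macrophages, at least 8.29-fold lower.

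**Figure D4:**
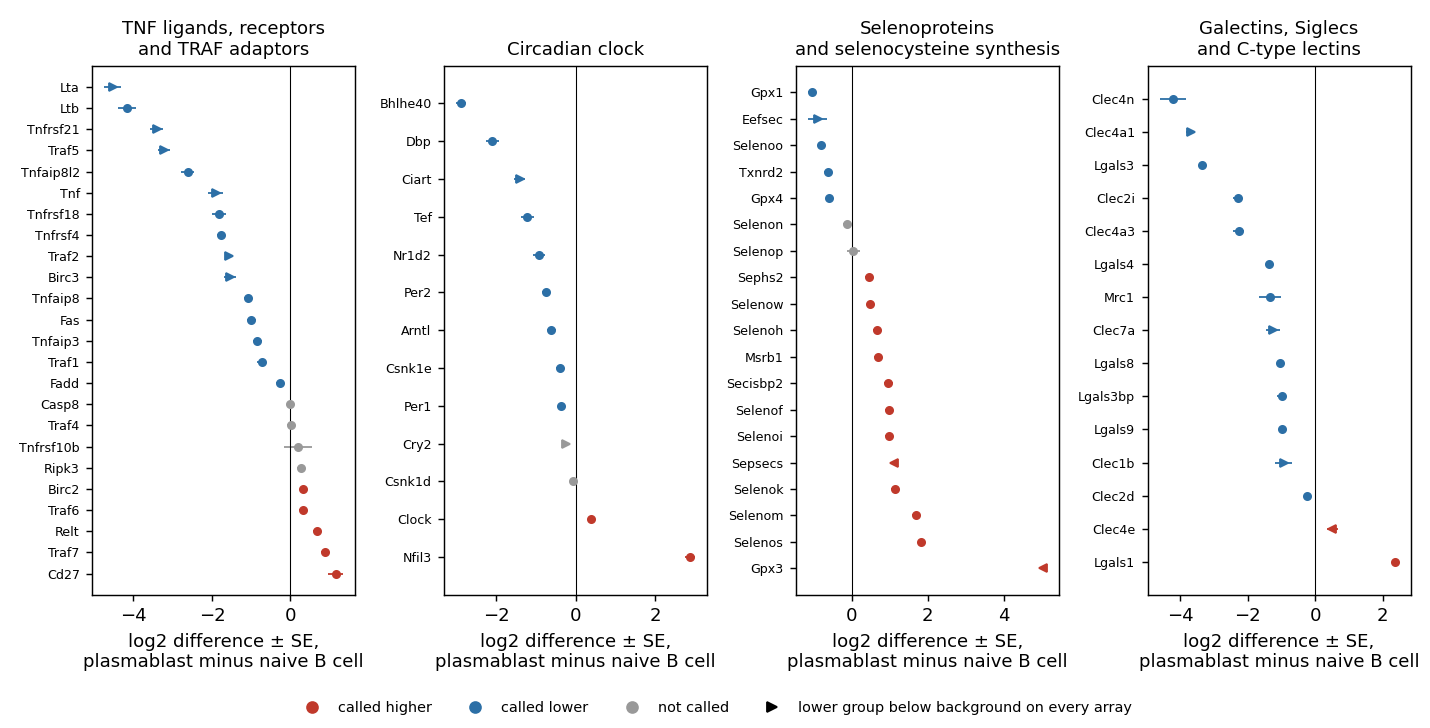
Log2 difference, plasmablast minus naive B cell, with bars of 1 standard error, for the tested members of 4 lists. Colours and triangles mark calls and background as named in the key. Nfil3, Gpx3 and Lgals1, the largest rises of their lists, lie far from the other members.

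Signalling between receptor and nucleus moved both ways, with more members lower than higher. Over all genes 38.8% were lower and 36.7% higher. Of 44 phosphoinositide and mTOR genes tested, 24 were lower (54.5%) and 11 higher; the kinase gene Sgk1 was 10.0-fold lower, at 8.24, 8.45 and 8.09 in plasmablasts and 11.62 and 11.55 in naive B cells, while Pik3cg, the catalytic subunit of PI3K gamma, was 3.59-fold higher. Without naive B cell replicate 2, 15 of the list were lower and 7 higher, and with the features kept 18 were lower. Of 29 calcium and calcineurin genes 18 were lower (62.1%) and 5 higher. The store-operated channel gene Orai3 was 2.94-fold lower and the transcription factor gene Nfatc1 2.87-fold lower, and Atp2a2, the pump that fills the ER with calcium, was 3.43-fold higher. Of 22 JAK, STAT and SOCS genes 12 were lower (54.5%) and 6 higher. The feedback inhibitor genes Socs2 and Cish were 6.04-fold and at least 2.85-fold higher, and Ptpn6, which encodes the inhibitory phosphatase SHP-1, was 5.20-fold lower. Of 14 TGF-beta and SMAD genes 8 were lower (57.1%) and 4 higher (28.6%). Tgfb1 had 9.06, 9.21 and 9.01 in plasmablasts and 11.48 and 11.50 in naive B cells, 5.26-fold lower.

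Purine handling held one of the largest rises. Ada, adenosine deaminase, which clears adenosine, had 11.25, 11.13 and 11.26 in plasmablasts and 6.53 and 6.24 in naive B cells, 28.4-fold higher (adjusted p = 2.67e-07). The nucleotide receptor gene P2ry13 was at least 7.54-fold lower and P2ry10 3.66-fold lower. Over the list of 32 tested purinergic and cyclic nucleotide genes, 10 were higher (31.2%, against 36.7% of all genes). In the same list 15 were lower (46.9%, against 38.8%), and the median was -0.31.

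Selenium proteins were more often higher. Selenoproteins carry selenocysteine and serve in redox reactions and in protein quality control at the ER. Of 19 tested genes (22 on the array), 12 were higher (63.2%, against 36.7% of all genes). Another 5 were lower and 2 not called, and the median was 0.66. Gpx3, the secreted glutathione peroxidase, had 10.60, 10.72 and 10.51 in plasmablasts and was below background on both naive B cell arrays, at least 18.3-fold higher. The ER members Selenos, Selenom and Selenok were 3.55-fold, 3.22-fold and 2.21-fold higher. The cytosolic peroxidase genes Gpx1 and Gpx4 were 2.06-fold and 1.5-fold lower.

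Channels, transporters and polyamines gave clear single genes. Of 25 ion channel genes tested 13 were higher (52.0%, against 36.7% of all genes) and 5 lower (20.0%, against 38.8%). Within the list, which leaves out Cacna1h, given among the largest changes, a pair of potassium channel genes rose most: Kcnk6 had 12.13, 12.09 and 12.27 in plasmablasts and 8.99 and 8.89 in naive B cells, 9.31-fold higher, and Kcnn4, the calcium-activated KCa3.1 channel of lymphocytes, was 7.73-fold higher. Hvcn1, the proton channel that works with the B cell oxidase, was 6.24-fold lower. Of 15 ABC transporter genes 7 were higher (46.7%) and 8 lower (53.3%). They ran from Abcb1b, a multidrug export pump, at least 22-fold higher, to Abcg1, a cholesterol exporter, at least 5.48-fold lower. Without naive B cell replicate 1 or 2, 4 ABC transporter genes were lower, and 7 with the features kept. Srm and Odc1, which make polyamines, were 7.88-fold and 2.75-fold higher. Sat1, which breaks them down, was 5.91-fold lower, at 10.98, 10.82 and 10.81 in plasmablasts and 13.39 and 13.48 in naive B cells. Over the 16 tested polyamine and methionine cycle genes, 5 were higher (31.2%) and 7 lower (43.8%), near the shares of all genes.

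The lists of gene control held single large changes in both directions. Eaf2, an elongation factor partner, was at least 13.4-fold higher, at 10.06, 10.08 and 10.33 in plasmablasts, while Ell3, of the ELL elongation factors that Eaf2 binds, had 6.36, 7.08 and 7.36 in plasmablasts and 11.67 and 11.63 in naive B cells, 26.2-fold lower. Ets1, a transcription factor that restrains plasma cell formation, was 4.01-fold lower. Foxm1, a factor of dividing cells, was 9.06-fold higher and Foxo1, a factor of resting lymphocytes, 2.99-fold lower. Prmt2, an arginine methyltransferase gene, was 6.00-fold lower, Mta3, a subunit of the NuRD complex, 4.95-fold lower, and Dot1l, the methyltransferase of histone H3 lysine 79, 2.49-fold higher. Id2 was at least 5.07-fold lower. Btg1, an antiproliferative gene that recruits mRNA deadenylases, was 6.96-fold lower, at 11.93, 12.20 and 11.97 in plasmablasts and 14.81 and 14.84 in naive B cells. In the ubiquitin ligase list of 95 tested genes 29 were higher (30.5%) and 39 lower (41.1%), near the 36.7% and 38.8% of all genes. Fbxw7 was 4.42-fold higher and Asb2 at least 23.7-fold lower.

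Families formed from the leading letters of the symbols added further groups. Of 115 families with at least 8 tested genes, 13 had at least 75% of members called in one direction. The 9 whose members were mostly outside the lists are given. They were picked by this share in the same data, so their counts are a description. Over all genes 38.8% were lower and 36.7% higher. The Klf genes, zinc finger transcription factors, were lower in 8 of 8, Klf4 at least 11.9-fold and Klf2 11.5-fold. Of 10 Irf symbols, Irf2bp1 and Irf2bpl among them, 8 were lower, Irf5 4.26-fold and Irf8 3.63-fold, and 1 higher, Irf4. Of 8 Myo genes, the myosins, 7 were lower. Of 14 symbols with an SH2 or SH3 name 12 were lower, among them Sh3bgrl3, 4.09-fold. Of 8 Commd genes 6 were lower. On the other side, 10 of 11 Alg genes, which build the glycan precursor at the ER, were higher (Alg2 6.10-fold), as were 7 of 9 Man genes (Man2a1 5.16-fold), 10 of 13 Nup genes of the nuclear pore (Nup50 2.22-fold) and 9 of 11 Kif genes, the kinesins (Kif18b 19.2-fold).

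With "at least" folds at their limit, the 15 largest rises outside the lists of the earlier description were led by Plpp5, a phospholipid phosphatase gene. It had 12.37, 12.39 and 12.52 in plasmablasts and 6.53 and 6.69 in naive B cells, 56.4-fold higher. The naive B cell signals of Plpp5 lay close to the lowest signals above background on those arrays, 6.51 and 6.32. Fkbp11, a prolyl isomerase of the secretory pathway, was 52.1-fold higher. Cacna1h, a T-type voltage-gated calcium channel gene known from neurons and muscle, had 11.98, 11.98 and 12.30 in plasmablasts and 6.33 and 6.99 in naive B cells, 43.1-fold higher. Tg, which encodes thyroglobulin, the thyroid hormone precursor, had 11.52, 11.35 and 11.49 in plasmablasts and did not reach background level on either naive B cell array, at least 32.8-fold higher. Both groups were far apart in each of these genes.

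The other large rises included genes named for oocytes or spermatogenesis. Oosp1, named for an oocyte secreted protein, had 12.55, 12.56 and 12.92 in plasmablasts and 8.09 and 8.0 in naive B cells, 24.8-fold higher, and its neighbour on chromosome 19, Oosp2, was at least 11.7-fold higher. Speer3 and Speer1, from a chromosome 5 family of spermatogenesis genes, were at least 27.5-fold and at least 22.1-fold higher; the family holds close copies, and which copy the features bind is uncertain. Alpl, tissue-nonspecific alkaline phosphatase, was 19.5-fold higher, Chst1, a sugar sulfotransferase, at least 20.6-fold, Hid1, of dense core granule formation, at least 24.3-fold, Fndc3b at least 22.9-fold, and the mitochondrial RNase gene Rexo2 19.4-fold. Igf2r, the lysosomal sorting receptor, was 6.87-fold higher and Maged1 9.72-fold, from lists of imprinted and germline genes of which 30 of 40 and 52 of 61 on the array did not pass the filter.

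S100a8, a calcium-binding protein gene of neutrophils, was the most uneven rise. It had 10.42, 9.90 and 11.85 in plasmablasts and 5.30 and 6.43 in naive B cells, where 1 of 2 arrays was above background, 28.9-fold higher with a standard error of 0.58 log2 units (adjusted p = 2.19e-04). S100a9, its binding partner, followed the same arrays, at 8.41, 7.87 and 10.00 in plasmablasts and below background in naive B cells. Plasmablast replicate 3 was highest in both genes, and the other 13 neutrophil markers on the array did not pass the filter.

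**Figure D5:**
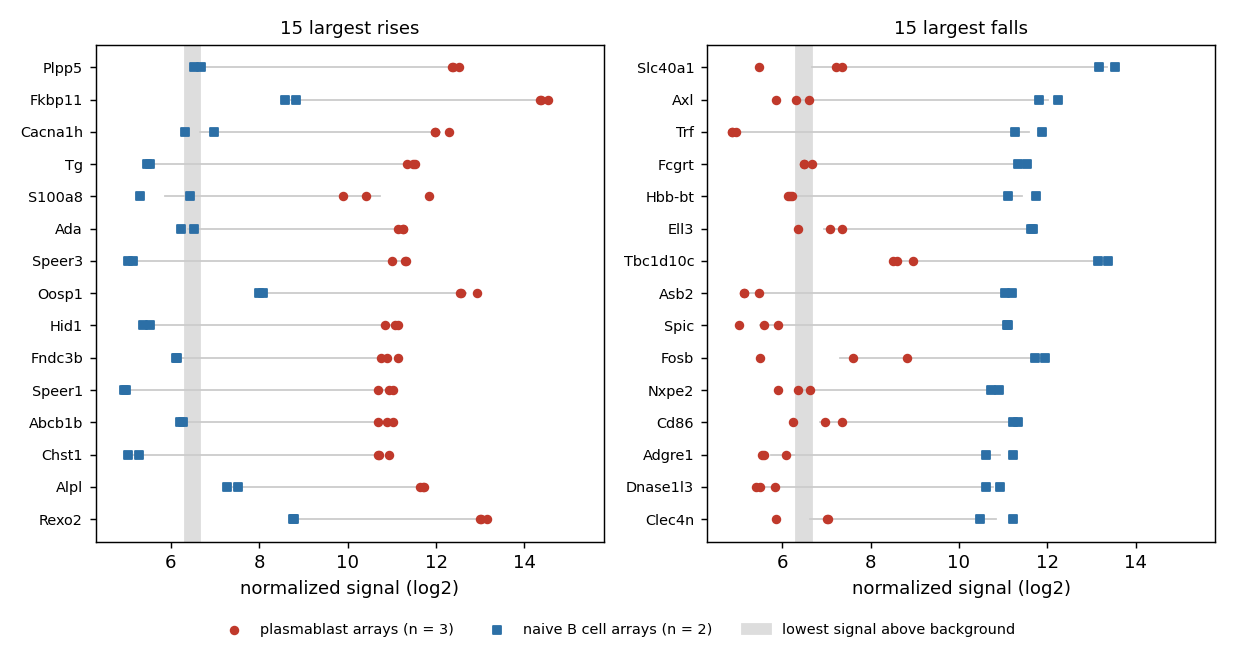
Normalized log2 signal on each array for the 15 largest rises (left) and falls (right) outside the lists of the earlier description. The largest is at the top, with "at least" folds ranked at their limit. Red points are plasmablast arrays, blue squares naive B cell arrays, grey lines join group means and the grey band spans the lowest signal above background on the 5 arrays; S100a8, Fosb and Slc40a1 have the widest spread among plasmablast arrays.

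The largest falls mixed B cell genes with genes of macrophages and red cells. Slc40a1, the iron exporter ferroportin, had 7.35, 5.47 and 7.21 in plasmablasts, where 2 of 3 arrays were above background, and 13.54 and 13.16 in naive B cells, 102.0-fold lower. Axl, a receptor for dying cells, was above background on 1 of 3 plasmablast arrays and 54.3-fold lower, Spic, the factor of red pulp macrophages, at least 23.4-fold and Adgre1, which encodes F4/80, at least 20.6-fold lower. These 4 genes are in the macrophage marker list, in which 16 of 17 tested genes were lower; in bulk samples fewer cells of a type and less RNA per cell cannot be told apart. Trf, transferrin, was at least 32.5-fold lower and the globin gene Hbb-bt at least 29.4-fold lower, beside the red cell markers.

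Other falls were mostly of genes known in B cells. Whether macrophage RNA on the naive B cell arrays, or handling for Fosb, had a part in these falls was not tested. Tbc1d10c, which encodes the calcineurin inhibitor carabin, had 8.60, 8.95 and 8.51 in plasmablasts and 13.15 and 13.38 in naive B cells, 23.9-fold lower. Cd86, the costimulatory ligand of CD28, had 6.25, 6.97 and 7.35 in plasmablasts and 11.35 and 11.22 in naive B cells, 21.5-fold lower. Cd28 itself was at least 13.8-fold higher in plasmablasts, at 9.96, 10.09 and 10.57, and its neighbour on chromosome 1, Ctla4, another receptor of CD86, at least 17.3-fold higher. T cells also express both receptors: of the T cell receptor complex genes tested beside them, Cd3g was higher and Cd3d not called. Fcgrt, which encodes the neonatal Fc receptor that recycles IgG, was 29.4-fold lower, at 6.49, 6.69 and 6.51 in plasmablasts and 11.54 and 11.34 in naive B cells. Fosb, an immediate early gene, was 23.1-fold lower with plasmablast values of 7.60, 8.83 and 5.49, the widest spread of these falls (SE 0.84 log2 units, adjusted p = 0.00214).

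Some neighbouring genes on a chromosome were called the same way. Among protein-coding genes in RefSeq order, 37 runs of at least 2 neighbours were all called the same way with no overlap between groups and by 4-fold or more, 19 higher and 18 lower, and 6 of the higher ones were histone genes. There were 2957 adjacent pairs with both genes tested, and whether neighbours shared a direction more often than genes far apart was not tested. Other runs held S100a8 and S100a9, Oosp1 and Oosp2, and Cd28 and Ctla4, and, among the lower ones, the complement genes C1qa, C1qb and C1qc, which are in the macrophage list, and the H2-DM genes.

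Promoters of strongly raised genes are shown for a motif of the ER stress response. The letters TGACGTGG, the unfolded protein response element bound by the product of Xbp1, were searched on both strands of the same windows. They lay in 6 of the 99 genes raised 8-fold or more that have a promoter in the table (6.06%), in 0 of 74 lowered 8-fold or more, in 1.15% of tested genes and in 0.714% of all 27025. The letters share ACGTG with the E-box below. The 6 were Hk2, Isg20, Lrrc59, Sec24d, Txndc11 and Txndc5. Isg20, an exonuclease gene, was 16.8-fold higher, and Txndc11, a thioredoxin-domain gene of the ER, 9.28-fold higher. The match is in capitals, in Isg20 on the opposite strand:
Isg20, chr7:78913515-78913814, plus strand: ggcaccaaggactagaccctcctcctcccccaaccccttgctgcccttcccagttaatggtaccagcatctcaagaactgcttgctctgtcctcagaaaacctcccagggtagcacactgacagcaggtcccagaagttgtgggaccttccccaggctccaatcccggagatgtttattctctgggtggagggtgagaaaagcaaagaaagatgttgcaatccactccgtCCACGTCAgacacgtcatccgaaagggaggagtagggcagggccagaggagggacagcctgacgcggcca
Txndc11, chr16:11134483-11134782, minus strand: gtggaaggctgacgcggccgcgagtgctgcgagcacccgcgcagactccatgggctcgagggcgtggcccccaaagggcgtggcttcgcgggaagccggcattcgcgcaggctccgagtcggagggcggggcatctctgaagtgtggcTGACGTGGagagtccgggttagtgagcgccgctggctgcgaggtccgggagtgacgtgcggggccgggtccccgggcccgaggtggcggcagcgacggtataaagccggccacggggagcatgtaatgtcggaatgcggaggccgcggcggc
The raised genes were chosen by these same values, so the shares are a description. The E-box CACGTG lay in 12.1% of the raised and 14.9% of the lowered genes against 12.5% of tested genes and 8.09% of all. The letters CCAAT lay in 67.7% of the raised and 41.9% of the lowered genes, against 44.4% of tested genes and 41.1% of all. The CArG box lay in 4.04% of the raised and 4.05% of the lowered genes, against 1.62% of tested genes. The letters GAGGAAGT, a form of the ETS factor site, lay in 3.03% of the raised and 6.76% of the lowered genes, against 4.09% of tested genes and 3.69% of all.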

How the data were processed

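Total RNA of sorted spleen cells was read on Illumina MouseRef-8 arrays. The authors deposited scanner intensity and detection p-value per feature, not normalized, made with GenomeStudio 2011.1 per the submitters' processing notes, and a table of normalized intensity values, used here only as an alternative; it lay within 0.0119 log2 units of a quantile normalization of the scanner intensity. The 5 arrays were background-corrected from the detection p-value, given an offset of 16, quantile normalized and put on the log2 scale (neqc, limma 3.58.1, R 4.3.3). Features with detection p under 0.01 on at least 2 arrays were kept and fitted with limma (lmFit, eBayes, Benjamini-Hochberg over all kept features, threshold 0.05). The steps were run on simulated data in which few features changed, as many up as down, all above background on the 5 arrays. Most features were called in the real data, so that run does not test the normalization, filter or background limit here. A gene took its brightest kept feature; the level of one feature was not set against that of another. Where every array of the lower group was below background, the fold is a bound against the lowest signal above background or, if higher, the feature's own signal. The number of arrays limits the precision.

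Of 25697 features, 23978 had 1 symbol and 1719 none; 23962 symbols were updated through RefSeq by Entrez number, and 575 kept features had no symbol. Named genes were the markers, the 15 largest rises and falls outside earlier described lists, up to 2 of each per list, up to 2 per named family, and genes with opposite features. Members and lists were chosen with earlier results of these data known. The difference between replicates 1 and 2 in plasmablasts did not follow that in naive B cells (correlation -0.004 over features). This is a single contrast, without plasmablast replicate 3. No pairing was used. Alternatives changed the normalization, offset, filter, fit, gene rule and arrays used, one at a time. One gene list is not reported here.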

Additional observations from a re-analysis of the deposited data

How the results depend on the processing

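Among alternatives that kept the features of a gene apart, no call shared with the main fit changed direction. The mean over features was not compared in this way. Features higher by 2-fold or more fell to 1095 with quantile normalization without background correction, 1099 with the authors' values and 1098 with detection required on all 5 arrays, against 1658; those lower fell to 1144, 1154 and 1046, against 1779. The last setting drops features seen in one group only, and under it 3 macrophage markers were lower. Leaving out 1 array gave 3372 to 3586 features higher, 2751 to 3685 lower, 1597 to 1687 higher by 2-fold and 1225 to 1820 lower by 2-fold. Without naive B cell replicate 1 or 2 the filter loses features seen in naive B cells alone (2759 and 2751 lower); with the features of the 5-array filter kept, an alternative chosen after seeing the data, 3422 and 3420 were lower. With the replicate block 3671 features were higher and 3651 lower, 1647 and 1793 by 2-fold, with numbers that do not pair the samples. Of list medians farther from 0 than their SD over plasmablast arrays, these changed sign, and the cause was not tested: Forkhead factors 0.01 without a filter; histones -0.04 with detection on all arrays, -0.01 with detection p under 0.05 and -0.05 without a filter; V-ATPase and lysosome 0.06 and Notch and Wnt 0.05 with 75th percentile scaling; peroxisome 0.01 without a filter and 0.03 with the mean over features; ABC transporters 0.26 with the mean over features; detoxification 0.13 and T and NK cell markers -2.13 with detection on all arrays. With 1 array left out the median ran from -0.09 to 0.09 for polyamine, -0.28 to 0.16 for detoxification, -0.19 to 0.06 for cilium, -0.12 to 0.04 for Notch and Wnt and -0.43 to 0.49 for ABC transporters, above 0 only without a naive B cell array, and below 0 there with the features of the 5-array filter kept. Medians nearer to 0 than that SD also crossed it, over all settings, for ETS factors (-0.14 to 0.06), histone and arginine methyltransferases (-0.06 to 0.11), transcript elongation (-0.15 to 0.04), tRNA and mRNA modification (-0.05 to 0.09) and proteases (-0.09 to 0.39). Among lists with under 5 genes tested, those of sort and identity markers (-0.62 to 3.77), sex-linked genes (-1.87 to 2.19) and dendritic cell markers (-1.68 to 1.29) also crossed 0. Of 218 named genes, 12 gene-by-setting results lost the call (Sirt6, H3c14 and Actb) and 11 gained one (Uty and Afg3l1), and 4222 kept their side of the threshold. The mean over features is not in these counts. Signals near background limit the folds marked "at least".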

Other observations

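Features of the same gene disagreed in 55 of the 1809 genes with more than 1 kept feature, and in 1087 all features were called the same way. The histone gene H2bc18 had a feature at least 3.95-fold higher in plasmablasts and another at least 3.26-fold lower. In each case the lower group was below background, so no single direction can be given for H2bc18. Over all features, 486 were above background on all 3 plasmablast arrays and on neither naive B cell array, and 723 on both naive B cell arrays and on no plasmablast array.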
